A study of Mus musculus with 12 samples.

Results

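The 10 genes described here serve protein folding and quality control in the endoplasmic reticulum (ER) and the secretion of antibody by plasma cells. They are Sdf2l1, Creld2, Fkbp11, Xbp1, Mzb1, Derl3, Hspa5, Dnajb9, Pdia4 and Manf and form a list put together with earlier results of these data known. The level of each was read from its brightest single-symbol probe set by the mean over 12 arrays. This gave 9 of the 10 genes among 22180 symbols with a probe set of their own. Each of the 9 had exactly 1 such probe set, so brightness decided nothing. Pdia4, a disulfide isomerase, shares its probe set with a microRNA gene and has no value here.

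LSK cells were sorted from bone marrow. They lack markers of mature lineages, carry Sca1 and Kit, and include blood stem cells and multipotent progenitors. All came from C57BL/6 mice, with ages not given in the sources used here. The wild-type mock group was Mll5+/+ without N-acetyl-L-cysteine (NAC), and the mutant mock group was Mll5-/- without NAC. The other two groups, wild-type NAC and mutant NAC, had the same genotypes with NAC, a quencher of reactive oxygen species, at 1 g per liter of drinking water from the mating of their Mll5+/- parents through life. Mll5, whose current symbol is Kmt2e, encodes a chromatin regulator, and the labels give the genotype as that of the animal. Its own probe set gave log2 signals of 7.39 to 7.68 in wild-type mock and 6.93 to 7.51 in mutant mock, which overlapped, and of 7.37 to 7.78 in wild-type NAC and 7.01 to 7.33 in mutant NAC. Over both treatments Kmt2e differed by -0.34 (mutant minus wild type, SE 0.12, adjusted p = 0.419 in limma). Which exons the deletion removed and which the probes read is not given in the sources used here, so this signal does not check the genotype labels, and mutant below means the arrays labelled Mll5-/-. Each group had 3 arrays, and the labels do not say whether these came from separate mice or pools, and p-values therefore reflect the spread among samples alone, which may be technical. Kit gave log2 signals of 8.74 to 9.24 and Cd34 of 9.87 to 10.52, and of 7 measured markers of the lineages that the sort removes, Cd3e, Cd8a and Ly6g lay below the median gene level of 3.17 in every array. Cd4 and Cd5 were above it in 3 and 2 arrays. Itgam, a myeloid integrin, and Ptprc, which most blood cells express, were above it in all 12, at 5.04 to 6.82 and 8.24 to 8.75. The Sca1 gene, Ly6a, could not be read from a single-symbol probe set. Pairs of arrays correlated at 0.976 to 0.988, and the 2 arrays least like the rest were replicate 1 of wild-type mock (array weight 0.71) and replicate 1 of mutant NAC (array weight 0.54).

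Proteins that enter the ER are folded by chaperones of the Hsp70 and Hsp90 families, lectin chaperones, disulfide isomerases and prolyl isomerases. When unfolded chains accumulate, the sensors IRE1, ATF6 and PERK start the unfolded protein response. IRE1 splices the mRNA of Xbp1 into a form that encodes an active transcription factor, ATF6 is cut to release another, and PERK slows translation and favours ATF4. XBP1 and ATF6 raise chaperones such as Hspa5 through the ER stress response element, and XBP1 is also needed for the secretory apparatus of plasma cells. In blood stem cells the same response has been linked to the choice between survival and death under protein stress.

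The promoters of Hspa5, Creld2, Derl3 and Sdf2l1 are shown because the first 3 hold this element and Sdf2l1, without it, had the largest difference with NAC. Each sequence runs 5′ to 3′ from 250 bases before to 50 bases after the gene's start in RefSeq, build GRCm38.p6. They lie at chr2:34771840-34772139 on the plus strand, chr15:88819396-88819695 on the plus strand, chr10:75893148-75893447 on the plus strand and chr16:17132334-17132633 on the minus strand, in this order. Capitals mark the fixed bases of the element, which is CCAAT, then any 9 bases, then CCACG, on either strand.
Hspa5: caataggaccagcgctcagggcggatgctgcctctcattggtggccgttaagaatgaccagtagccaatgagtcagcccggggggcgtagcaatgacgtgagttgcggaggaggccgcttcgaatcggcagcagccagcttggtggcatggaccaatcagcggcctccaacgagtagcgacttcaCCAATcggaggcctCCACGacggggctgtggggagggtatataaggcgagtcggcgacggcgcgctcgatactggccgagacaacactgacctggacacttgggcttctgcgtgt
Creld2: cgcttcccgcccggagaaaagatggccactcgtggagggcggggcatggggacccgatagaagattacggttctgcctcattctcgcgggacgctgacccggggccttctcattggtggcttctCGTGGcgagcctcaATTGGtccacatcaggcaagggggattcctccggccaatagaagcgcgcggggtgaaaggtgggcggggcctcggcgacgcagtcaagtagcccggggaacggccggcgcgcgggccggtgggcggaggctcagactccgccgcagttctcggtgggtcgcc
Derl3: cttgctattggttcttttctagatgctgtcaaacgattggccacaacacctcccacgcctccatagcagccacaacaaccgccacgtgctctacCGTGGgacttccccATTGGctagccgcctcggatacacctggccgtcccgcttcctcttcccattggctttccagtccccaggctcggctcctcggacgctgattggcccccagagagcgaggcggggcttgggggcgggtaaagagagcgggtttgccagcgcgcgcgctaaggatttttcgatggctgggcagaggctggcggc
Sdf2l1: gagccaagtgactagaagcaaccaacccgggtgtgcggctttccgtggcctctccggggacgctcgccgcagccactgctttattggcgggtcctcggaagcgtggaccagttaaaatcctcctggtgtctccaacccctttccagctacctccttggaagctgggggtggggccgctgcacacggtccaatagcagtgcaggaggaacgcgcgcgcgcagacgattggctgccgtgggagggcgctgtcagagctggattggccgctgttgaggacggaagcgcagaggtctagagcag

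From the table of promoters 8 of the 10 genes were read, with 9 promoters, without Mzb1 and Manf. Any entry of the 10 genes on chr18 was left out, while the counts over all promoters kept that chromosome. The element stood in 3 of the 8 genes, at bases 186 to 204 of the Hspa5 sequence as written, and on the reverse strand at bases 125 to 143 for Creld2 and 95 to 113 for Derl3. Of all 32851 promoters in the table, 39 held it on either strand, which is 0.119%. A related form, ATTGG, any 1 base and CCACG, stood in none of the 8 genes and in 0.037% of all promoters, and the XBP1 and ATF6 site TGACGTGG in none of the 8 and in 0.676% of all. Each match is a description of the letters and not of binding. The parts of the element are common: CCACG alone stood in 7 of the 8 genes and in 32.769% of all promoters, and CCAAT alone in 7 of the 8 and in 37.408%.

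Hspa5 encodes BiP, the main Hsp70 chaperone of the ER. Its log2 signals were 8.39, 7.84 and 7.82 in wild-type mock replicates 1 to 3 and 8.55, 7.68 and 7.50 in mutant mock. With NAC they were 8.10, 8.26 and 8.38 in wild type and 8.16, 8.06 and 8.28 in the mutant. Replicate 1 was the highest in both mock groups, the other 4 mock arrays were the lowest of all, and every pair of groups overlapped. Sdf2l1, a partner of BiP in the chaperone complex, gave 8.0, 6.97 and 6.76 in wild-type mock and 7.91, 7.00 and 6.69 in mutant mock. With NAC it gave 7.75, 7.89 and 8.08 in wild type and 7.79, 7.73 and 8.27 in the mutant. Again replicate 1 of each mock group lay among the NAC arrays, and the other 4 mock arrays lay below all 6 of them. The SD of Sdf2l1 was 0.66 and 0.63 in wild-type and mutant mock, and 0.17 and 0.30 with NAC (n = 3 each). Dnajb9, a J-domain co-chaperone that brings BiP to its clients and to IRE1, gave 7.66, 7.25 and 7.73 in wild-type mock and 7.60, 6.59 and 7.26 in mutant mock. With NAC it gave 7.04, 7.46 and 7.60, and 7.31, 7.32 and 7.68 in the mutant. Its lowest array was mutant mock replicate 2, and all groups overlapped.

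Creld2 and Manf encode small proteins that are induced by ER stress and can be secreted. Creld2 gave log2 signals of 6.49, 6.23 and 6.10 in wild-type mock and 6.49, 6.08 and 6.24 in mutant mock. With NAC it gave 6.56, 6.51 and 6.55 in wild type, all above the 3 wild-type mock arrays, and 6.72, 6.23 and 6.49 in the mutant, which overlapped with mock. Manf gave 5.89, 5.19 and 5.40 in wild-type mock and 5.85, 5.62 and 5.33 in mutant mock. With NAC it stayed within 5.78 to 5.92 in all 6 arrays, a range that mock replicate 1 of both genotypes reached and the other 4 mock arrays did not. Fkbp11, a prolyl isomerase of the ER membrane that is abundant in secretory cells, gave 6.15, 5.17 and 4.63 in wild-type mock and 5.74, 5.14 and 4.90 in mutant mock. With NAC it gave 5.75, 5.57 and 6.01 in wild type and 6.38, 5.39 and 5.57 in the mutant. Its highest array was mutant NAC replicate 1 and its second highest wild-type mock replicate 1, the arrays that stood apart.

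Xbp1, the transcription factor of the response, gave 6.60, 6.45 and 6.21 in wild-type mock, 6.72, 6.11 and 6.36 in mutant mock, 6.48, 6.26 and 6.78 in wild-type NAC and 6.52, 6.36 and 6.45 in mutant NAC, and all groups overlapped. The splicing of its mRNA, which sets its activity, was not analysed here. Mzb1, a chaperone of plasma cells and marginal zone B cells that helps assemble secreted antibody, was dim, at 3.92, 3.62 and 4.15 in wild-type mock and 3.85, 3.52 and 3.37 in mutant mock. With NAC it lay between 3.62 and 3.94 in wild type and between 3.61 and 3.85 in the mutant. Derl3, a derlin of ER-associated degradation found in secretory tissues, lay between 3.47 and 3.99 over all 12 arrays. Both probe sets were above the median gene level in every array but close to it, where differences are compressed, so small values for them are not evidence of equal expression.

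**Figure D1:**
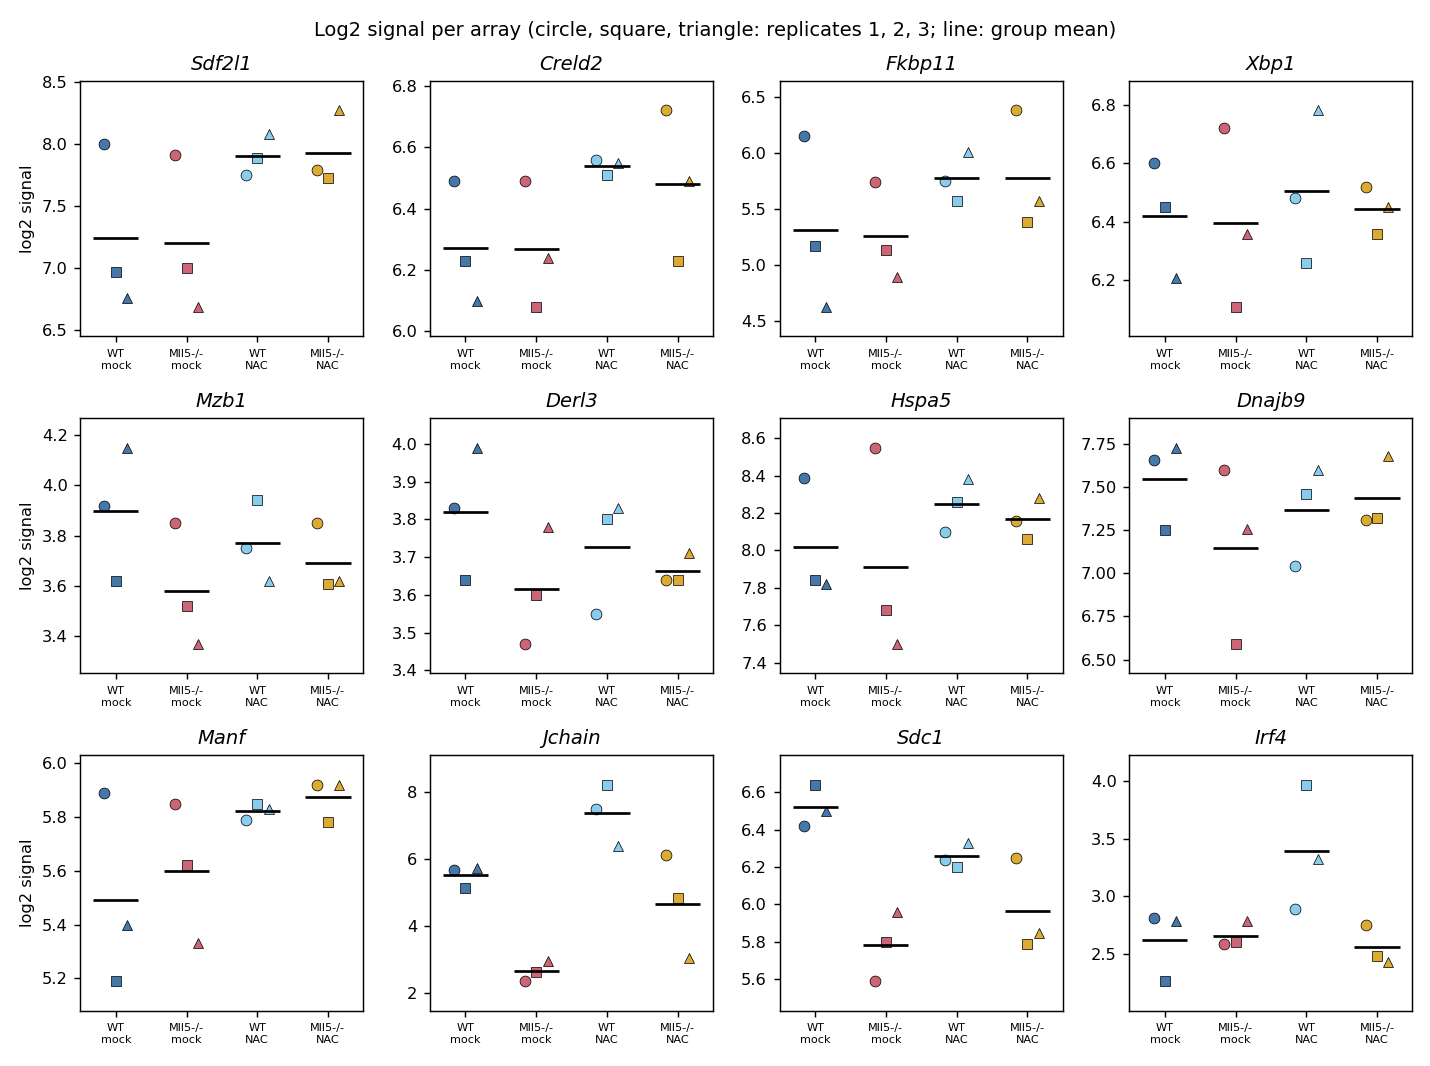
Log2 signal of the 9 measured genes and of Jchain, Sdc1 and Irf4 on each of 12 arrays, by group (x axis), with symbols for the replicate number and a line at each group mean (n = 3); each panel has its own y axis, which does not start at 0. For Sdf2l1 and Manf, replicate 1 of both mock groups lies within the range of the NAC arrays, for Hspa5 it lies above it, and for all 3 the other mock arrays lie lower, while Jchain and Sdc1 separate the mock genotypes.

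The first question was whether these genes differ without Mll5. In mock, limma called 0 of the 9 genes at an adjusted p under 0.05, where 0.00902% of all genes were called, and 0 had an unadjusted p under 0.05, against 6.63%. The mock groups overlapped for all 9 genes, while 11.4% of all genes had groups that did not overlap. The largest log2 difference, mutant minus wild type, was that of Dnajb9 at -0.40 (SE 0.24, adjusted p = 0.827), followed by Mzb1 at -0.32 (SE 0.17, adjusted p = 0.799) and Derl3 at -0.20 (SE 0.13, adjusted p = 0.836). The other 6 lay between -0.11 and 0.11. The value of Dnajb9 was -0.12 when mutant mock replicate 2 was left out and -0.62 when replicate 1 of that group was. With wild-type mock replicate 3 left out, Mzb1 was at -0.19 and Derl3 at -0.12. In NAC, 0 of the 9 were called at an adjusted p under 0.05 (0.0% of all genes), 0 had an unadjusted p under 0.05 (7.17% of all genes), and 0 had groups that did not overlap (12.4% of all genes). All 9 differences lay between -0.08 and 0.07.

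Over both treatments, with 6 mutant against 6 wild-type arrays, limma called 0 of the 9 (0.00902% of all genes), and 0 had an unadjusted p under 0.05 (9.08% of all genes). The median of the 9 log2 differences was -0.04, beside 0.00 over all genes, and 8 of 9 were negative, beside 10897 of 22180. Single arrays moved this. Leaving out mutant mock replicate 1 gave a median of -0.15, and leaving out replicate 2 of that group gave 0.003. Over the alternatives 1 to 6 of the 9 were higher in the mutant. The 95% interval of the difference ran from -0.51 to 0.49 for Sdf2l1, from -0.46 to 0.27 for Hspa5, from -0.27 to 0.21 for Creld2 and from -0.19 to 0.35 for Manf. For Mzb1 it ran from -0.45 to 0.06 and for Derl3 from -0.34 to 0.07.

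NAC against mock asked what the quencher changes in the same cells. Over both genotypes, 7 of the 9 genes were higher with NAC, with a median log2 difference of 0.24, beside 10993 of 22180 genes higher and a median of 0.00 over all genes. Without both arrays that stand apart, 7 of 9 were again higher, with a median of 0.23. Without mutant mock replicate 3 the median was 0.14. Limma called 0 of the 9 (0.00451% of all genes), and 2 of the 9, Sdf2l1 and Manf, had an unadjusted p under 0.05, beside 7.43% of all genes. For Sdf2l1 the log2 difference was 0.70 (SE 0.23, 1.62-fold, unadjusted p = 0.0106, adjusted p = 0.501), Manf of 0.30 (SE 0.12, adjusted p = 0.606) and Fkbp11 of 0.49 (SE 0.25, adjusted p = 0.723). Creld2 differed by 0.24 (SE 0.11, adjusted p = 0.673) and Hspa5 by 0.24 (SE 0.17, adjusted p = 0.811). Xbp1, Dnajb9, Mzb1 and Derl3 lay between -0.02 and 0.07.

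Single arrays moved some of these values. The difference of Hspa5 was 0.14 when mutant mock replicate 3 was left out. It was 0.40 when replicate 1 of that group was left out, and that of Fkbp11 was 0.32 without wild-type mock replicate 3. That of Sdf2l1 ranged from 0.57 to 0.92 over its alternatives. In wild type alone, Sdf2l1 differed by 0.66 (SE 0.33, adjusted p = 0.862), with 0.42 when mock replicate 3 was left out and 1.04 when mock replicate 1 was, and Creld2 by 0.27 (SE 0.16, adjusted p = 0.874). There 0 of the 9 genes were called (0.00902% of all genes), 0 had an unadjusted p under 0.05 (5.92% of all genes), and 1 of 9, Creld2, had groups that did not overlap, beside 10.7% of all genes. In the mutant alone, all 9 differences were positive, from 0.05 to 0.73, though Derl3 was at -0.03 and Sdf2l1 at 1.08 when mock replicate 1 was left out. Sdf2l1 was at 0.47 when mock replicate 3 was left out, and Dnajb9 went from 0.29 to 0.01 when mock replicate 2 was. Sdf2l1 was the 1 gene with an unadjusted p under 0.05 (0.73, SE 0.33, adjusted p = 0.842; 5.86% of all genes), 0 were called (0.00451% of all genes) and 0 had groups that did not overlap (10.2% of all genes).

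The interaction, which asks whether NAC acted differently in the mutant, called 0 of the 9 in limma (0.0% of all genes), and 0 had an unadjusted p under 0.05 (4.21% of all genes). Its value, the NAC effect in the mutant minus that in wild type, was 0.07 (SE 0.47) for Sdf2l1, 0.03 (SE 0.34) for Hspa5 and -0.06 (SE 0.22) for Creld2. The largest was that of Dnajb9 at 0.47 (SE 0.34, adjusted p = 0.999), with a 95% interval from -0.27 to 1.20. It was 0.19 without the second mutant mock array and 0.69 without the first. For Sdf2l1 the alternatives ran from -0.31 to 0.42, so its sign was not settled. Without both arrays that stand apart, that of Fkbp11 moved from 0.06 (SE 0.50) to -0.66 and that of Creld2 to -0.29.

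**Figure D2:**
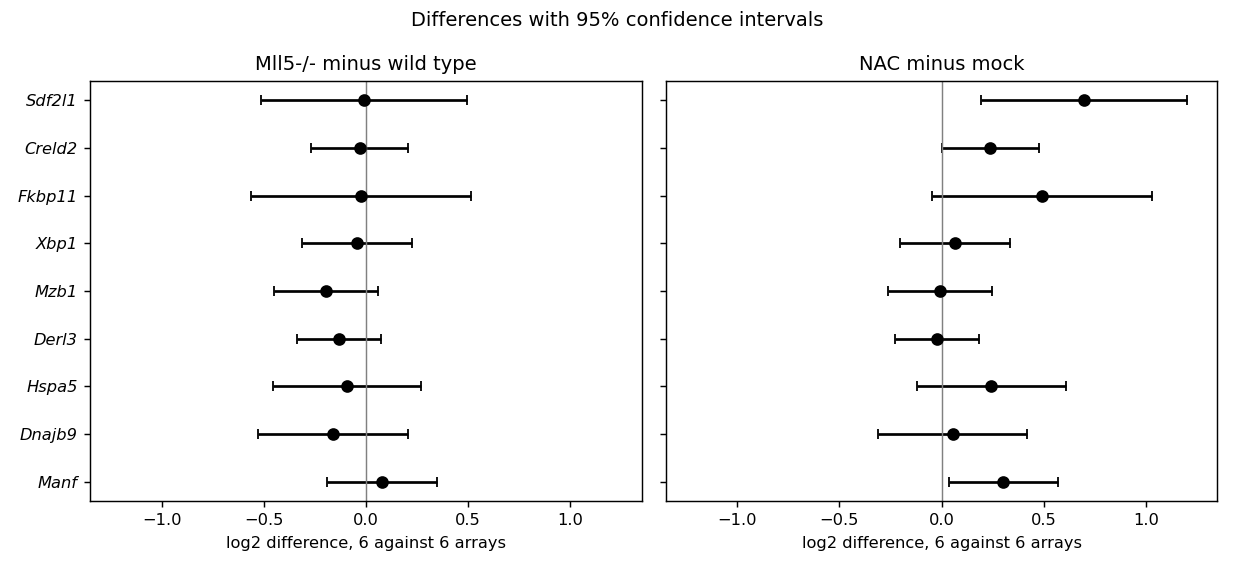
Log2 differences of the 9 genes (y axis) with 95% confidence intervals from limma, for Mll5-/- minus wild type over both treatments (left) and NAC minus mock over both genotypes (right), 6 against 6 arrays each. All 9 genotype intervals include 0, and the NAC intervals of Sdf2l1 and Manf lie above 0 before any adjustment over genes.

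The 9 genes did not vary as 1 group. Sdf2l1, Hspa5, Manf, Fkbp11 and Creld2, singled out after their values were seen, rose and fell together over the 12 arrays, with Pearson's r from 0.735 to 0.908 over their 10 pairs. After each group's mean was taken out, r for these pairs was still 0.609 to 0.944. Sdf2l1 and Hspa5 had r = 0.907 (rho = 0.909) over the 12 arrays and r = 0.944 within groups. Xbp1 followed Hspa5 with r = 0.717 (rho = 0.768), and Dnajb9 followed it with r = 0.566 (rho = 0.532). Mzb1 and Derl3 stood aside: over their 14 pairs with the other 7 genes r ran from -0.277 to 0.520, with a median of 0.09, and with each other they had r = 0.350. These correlations describe 12 arrays that share groups and are given without a test.

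**Figure D3:**
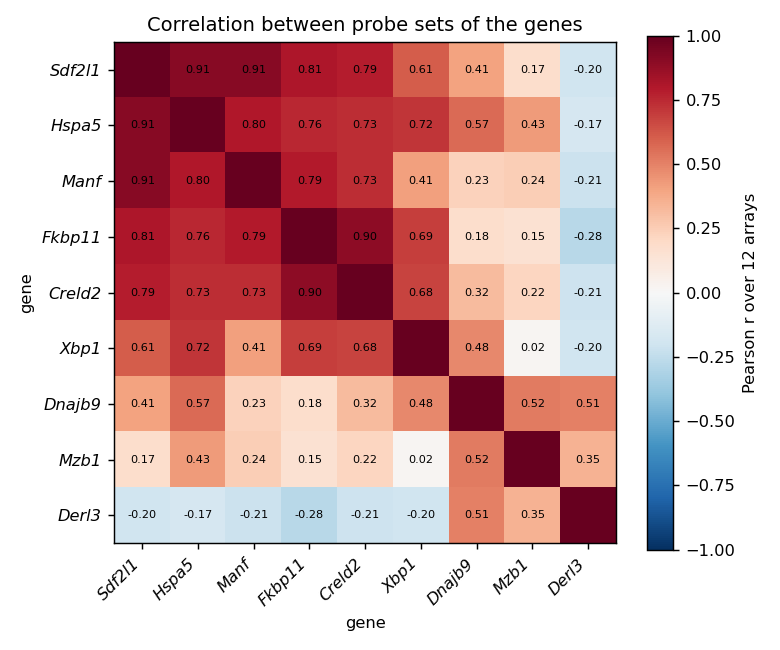
Pearson correlation over 12 arrays between the probe sets of the 9 genes, with genes on both axes and the value printed in each cell. The first 5 genes form a block with r from 0.735 to 0.908, and Derl3 has values from -0.277 to 0.507 with the first 7.

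The residual SD within groups was 0.49 for Sdf2l1 and 0.53 for Fkbp11, larger than that of 95.7% and 97.0% of the genes above the median level. It was 0.34 for Hspa5 and for Dnajb9, 0.23 for Manf and 0.19 for Creld2. The mean of the 9 genes, each centred on its own mean, was 0.27 in wild-type mock replicate 1 and 0.18 in mutant mock replicate 1. In the other 4 mock arrays it lay between -0.36 and -0.19, and in the 6 NAC arrays between -0.05 and 0.24. The lowest was mutant mock replicate 2, where 0 of the 9 genes were above their own mean, and the highest wild-type mock replicate 1, where all 9 were.

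Genes whose pattern was most like these were sought among 10222 other named genes above the median level, by Pearson's r over the 12 arrays. The mean of the 9 genes was followed most closely by Agps, an enzyme of ether lipid synthesis (r = 0.932), Card9, an adaptor of innate immunity (r = 0.918), the lipid flippase gene Atp8b4 (r = 0.913), Dnajc3, an ER co-chaperone of BiP (r = 0.910), and the glutamate receptor gene Gria3 (r = 0.902). Hspa5 alone was most like Hyou1, a large Hsp70-related chaperone of the ER (r = 0.924, rho = 0.869), Gria3 (r = 0.915), Igsf6 (r = 0.908), the Golgi mannosidase Man2a1 (r = 0.903) and Atp8b4 (r = 0.900). Without the 2 arrays farthest from the median of Hspa5, mutant mock replicates 2 and 3, its r with Hyou1 was 0.918. Mzb1 was most like Ing3 (r = 0.855), Dyrk1a (r = 0.854), Ccrl2 (r = 0.847), Zbtb10 (r = 0.844) and Mdm2 (r = 0.825). Without the 2 arrays farthest from the median of Mzb1, replicate 3 of wild-type mock and of mutant mock, these r ran from 0.612 to 0.869.

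Other genes of the pathway were read from 8 lists, with 111 measured genes in all. None was called by limma in any of the 7 comparisons, where at most 0.00902% of all genes were called. With NAC over both genotypes, 84 of the 111 were higher and the median was 0.12, beside 0.00 over all genes, and 20 had an unadjusted p under 0.05, all 20 of them higher, where 7.43% of all genes had such a p. Over the alternatives 81 to 90 were higher, with medians from 0.09 to 0.15. The alternative with only genes above the median level held fewer than 111 of these genes, so its count has a smaller total. The 111 genes were read on the same arrays and are not independent of the 9. The mean of the ER-associated degradation list was 7.245 and 7.23 in replicate 1 of wild-type and mutant mock, above its NAC arrays at 7.08 to 7.17. For the other ER chaperones these 2 mock arrays lay at 6.88 and 6.91, beside 6.90 to 6.99 with NAC. In the remaining mock arrays the 2 means lay lower, at 6.79 to 6.985 and 6.68 to 6.75. Of 15 other ER chaperones and co-chaperones 13 were higher with NAC, with a median of 0.18. In wild type alone all 15 were higher, and in the mutant alone 13 were, with Dnajc1 at -0.06 and Cdnf at -0.14. Dnajc3 differed by 0.31 (SE 0.11, adjusted p = 0.539), Hsp90b1, the Hsp90 of the ER, by 0.27 (SE 0.11, adjusted p = 0.614) and Hyou1 by 0.27 (SE 0.14, adjusted p = 0.731). These 3 and the NAC values of the genes in the next paragraph were picked after the values were seen, as examples.

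Of 13 disulfide isomerases and ER oxidases 11 were higher with NAC (median 0.14). Ero1a, the oxidase that recharges disulfide isomerases, differed by 0.57 (SE 0.20, adjusted p = 0.514) and Pdia5, a disulfide isomerase, by 0.49 (SE 0.19, adjusted p = 0.559). In wild type alone Ero1a was at 0.75 (SE 0.28), and in the mutant alone at 0.39 (SE 0.28). Of 22 genes of the translocon, signal peptide cleavage and glycan transfer 21 were higher, with a median of 0.15. Of 14 genes of ER-associated degradation 10 were higher (median 0.10), of 8 unfolded protein sensors and their proteases 6 (median 0.13), and of 19 ER to Golgi transport genes 13 (median 0.04). Sec24d, a coat protein of vesicles that leave the ER, differed by 0.39 (SE 0.14, adjusted p = 0.556). This mean hid a difference of 0.74 in wild type (SE 0.20) and of 0.03 in the mutant (SE 0.20). The interaction of Sec24d in limma was -0.71 (SE 0.29, adjusted p = 0.999). The 6 ER prolyl isomerases were split, with 3 higher and a median of -0.02. Of 14 genes of the PERK and ATF4 branch 7 were higher, with a median of 0.03. There Atf4 differed by -0.04 (SE 0.08) and Ddit3, which encodes CHOP, by -0.005 (SE 0.12).

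**Figure D4:**
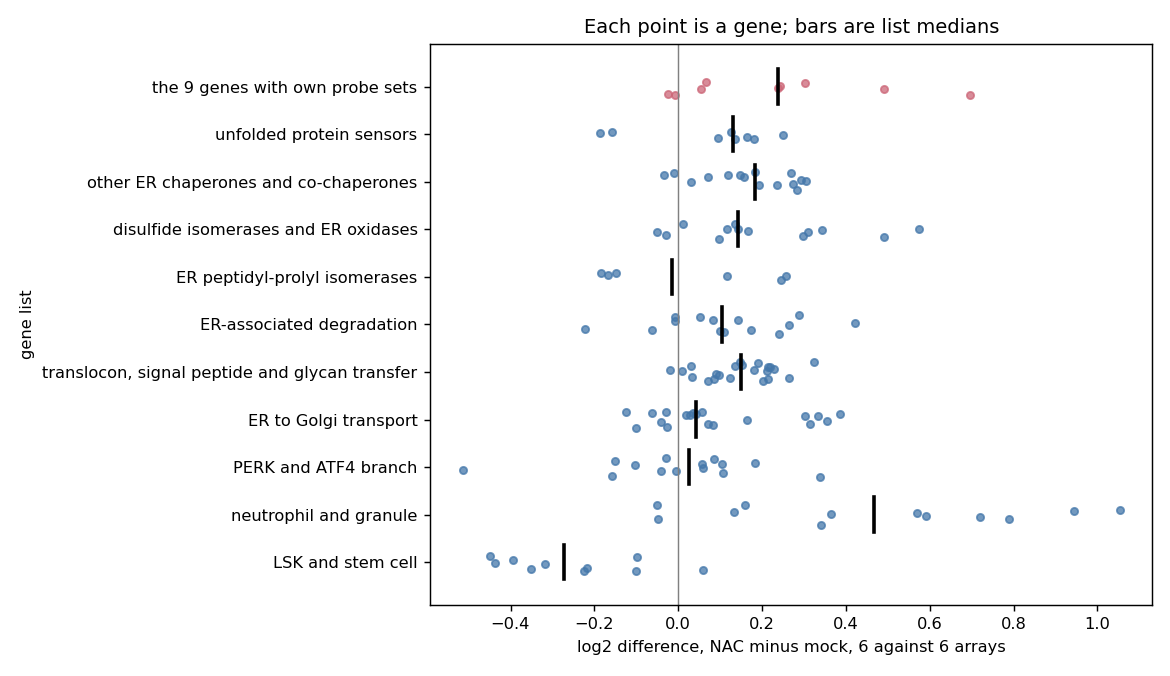
Log2 difference, NAC minus mock over both genotypes (x axis, 6 against 6 arrays), of each measured gene (points) in 9 ER gene lists and 2 marker lists (y axis), with a bar at each list's median. The medians run from 0.24 for the 9 genes and 0.18 for other chaperones down to 0.03 for the PERK and ATF4 branch and -0.02 for the prolyl isomerases, with neutrophil and granule markers at 0.47 and LSK and stem cell markers at -0.27.

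Between the genotypes the same lists showed no common direction. Over both treatments 58 of the 111 genes were higher in the mutant, with a median of 0.00. Single lists leaned 1 way. The median was -0.09 for the sensors, with -0.14 to -0.05 over the alternatives. It was 0.07 for the translocon, signal peptide and glycan transfer list, with 0.02 to 0.14. The medians of the other lists changed sign among the alternatives. The 3 genes with the smallest p were all lower among the sensors and all higher in the translocon list. In the other lists they lay on both sides. The values that follow are log2 differences, mutant minus wild type. Each is from the treatment with the smaller unadjusted p for that gene, and for some genes the other treatment went the other way. Atf6, for example, had means of 6.32 in wild-type mock and 6.43 in mutant mock. Among the sensors, Eif2ak3, which encodes PERK, was at -0.44 in mock (SE 0.17, adjusted p = 0.706), and in NAC the membrane-bound factors Creb3 and Atf6 were at -0.48 and -0.37. Among chaperones, Dnajc10, a J-domain reductase, was at 0.33 in NAC (SE 0.12, adjusted p = 0.640), while Cdnf, a relative of Manf, was at -0.25 in NAC and Cnpy2 at -0.18 in mock. Among disulfide enzymes, Ero1b, a relative of Ero1a, was at -0.50 in NAC (SE 0.13, adjusted p = 0.529), the peroxiredoxin Prdx4 at 0.52 in NAC and Tmx1 at 0.49 in mock (SE 0.16, adjusted p = 0.660). The prolyl isomerase Ppic was at 0.67 in NAC (SE 0.16, adjusted p = 0.495), with Fkbp7 at -0.38 in mock and Fkbp2 at -0.14 in NAC.

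In degradation, the lectins Erlec1 and Os9, which hand over misfolded glycoproteins, were at 0.41 in NAC (SE 0.12, adjusted p = 0.559) and 0.49 in mock (SE 0.16, adjusted p = 0.640), and Herpud1 was at -0.39 in mock. In protein entry, the translocon subunit Sec61g, its partner Ssr1 and the signal peptidase subunit Spcs3 were at 0.36, 0.38 and 0.32 in NAC. In transport, the coat proteins Sec24d and Sec24a were at 0.56 in mock and -0.30 in NAC, and the retrieval receptor Kdelr3 was at -0.34 in NAC. In the PERK branch, the lipoprotein receptor Vldlr was at -1.17 in NAC (SE 0.24, adjusted p = 0.457), Sesn2 at 0.45 in NAC and Trib3, a target of CHOP, at 0.62 in mock. In NAC, Os9 was at -0.10. The NAC means in wild type and mutant were 5.14 and 4.99 for Sec24d, and 2.90 and 2.72 for Trib3. All group means of Cdnf and Kdelr3 lay below the median gene level of 3.17, and those of Trib3 lay at 2.60 to 3.23. Over the genes named by smallest p, each in the treatment with its smaller p, the adjusted p from limma ran from 0.457 to 0.867.

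The promoter element offered a list chosen by sequence and not by values. Of 37 genes with the element, 29 were measured, 26 of them outside the 10. Of these 26, 15 were higher with NAC over both genotypes, with a median of 0.01, beside -0.002 over all genes. Of the 12 of these above the median level, 7 were higher with NAC, with a median of 0.03. Pdia6, a disulfide isomerase (0.34, SE 0.15, adjusted p = 0.628), Dnajc3 (0.31), Hsp90b1 (0.27), the lectin chaperones Calr (0.24, SE 0.11, adjusted p = 0.671) and Canx (0.19, SE 0.09, adjusted p = 0.703) were the highest of these 12. All of those named also belong to the ER lists above. Syvn1, the ubiquitin ligase of ER-associated degradation, differed by -0.22 (SE 0.17) and Alg12, a glycan assembly enzyme, by -0.50 (SE 0.15, adjusted p = 0.445). Genes with the element lay on both sides, and those named here were picked after their values were seen. None of the 26 was called by limma in the NAC comparison, where 0.00451% of all genes were called. Sdf2l1, with the largest NAC difference of the 9 genes, held no copy of these letters in its window, and Derl3, which held one, differed by -0.02 (SE 0.09).

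Over the 12 arrays, neutrophil and granule markers moved with the ER genes, and LSK and stem cell markers moved against them. The other marker lists had r from -0.43 for T cells to 0.47 for B cells with the mean of the 9 genes. After group means were taken out, other lists came as close. Then r was 0.654 for B cells, -0.672 for T cells and -0.568 for plasmacytoid dendritic cells. It was 0.715 for neutrophil and granule markers, -0.642 for LSK and stem cell markers and between -0.187 and 0.394 for the rest. Of 6 measured T cell markers, 5 were never above the median gene level. Of 12 neutrophil and granule markers, 10 were higher with NAC over both genotypes, with a median of 0.47. Among them Ms4a3, of granulocyte and monocyte progenitors, differed, as examples picked after the values were seen, by 1.05 (SE 0.30, adjusted p = 0.427) and the granule proteases Prtn3 and Elane by 0.59 (SE 0.22, adjusted p = 0.547) and 0.72 (SE 0.33, adjusted p = 0.673). The mean log2 signal of the list lay between 6.25 and 6.85 in wild-type mock, 5.47 and 6.55 in mutant mock, 6.81 and 6.91 in wild-type NAC and 6.37 and 6.82 in mutant NAC. The lowest array was mutant mock replicate 3, and wild-type mock replicate 1 lay at 6.85, with the NAC arrays. Over the 12 arrays it followed the mean of the 9 genes with r = 0.791 (rho = 0.797), with r = 0.715 within groups and 0.651 without mutant mock replicates 2 and 3. Of the genes of later neutrophils in this list, Ltf, Camp, Ngp and Mmp8 lay below the median gene level in every array and Lcn2 was above it in 7. S100a8 and S100a9 were above it in all 12, at 6.31 to 9.82 and 4.26 to 6.96, and with NAC they differed by 0.94 (SE 0.32, adjusted p = 0.503) and 0.79 (SE 0.23, adjusted p = 0.438). LSK and stem cell markers went the other way, with 9 of 10 lower with NAC, a median of -0.27 and r = -0.683 (rho = -0.580) with the 9 genes. Their mean lay between 7.24 and 7.68 in wild-type mock, 7.35 and 7.51 in mutant mock, 7.22 and 7.31 in wild-type NAC and 6.94 and 7.23 in mutant NAC. In bulk samples such as these, fewer cells of a type and less RNA per cell cannot be told apart, and the part of these markers in the ER differences was not tested.

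**Figure D5:**
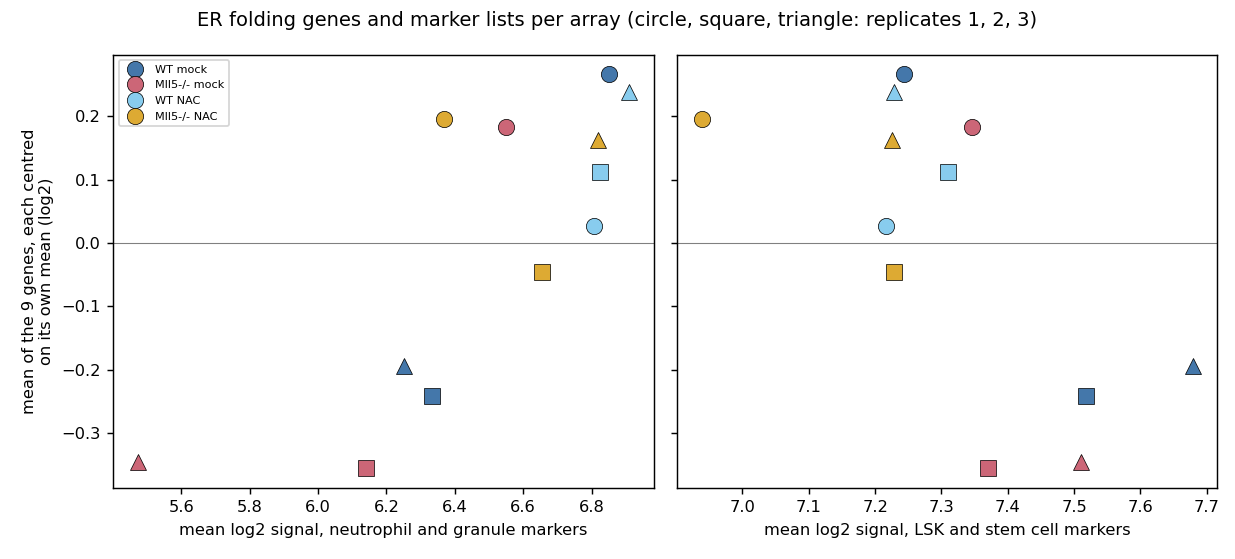
Mean of the 9 genes per array, each gene centred on its own mean (y axis, log2), against the mean log2 signal of neutrophil and granule markers (left) and of LSK and stem cell markers (right), for 12 arrays in 4 groups. Arrays with high granule markers have high ER genes (r = 0.791), and arrays with high stem cell markers have low ones (r = -0.683).

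Plasma cell genes as a list did not follow the ER genes over the arrays. With NAC over both genotypes the median of the list was 0.07, although Jchain was higher with NAC, as most ER genes were. Jchain, the joining chain of secreted antibody, gave log2 signals of 5.68, 5.14 and 5.73 in wild-type mock and 2.36, 2.64 and 2.97 in mutant mock, so that the groups did not overlap. With NAC it gave 7.50, 8.21 and 6.39 in wild type and 6.13, 4.84 and 3.04 in the mutant, again without overlap. In both genotypes all its NAC arrays lay above all its mock arrays. In mock its mutant minus wild-type difference was -2.86 (SE 0.61, adjusted p = 0.358). The 6 against 6 comparison gave -2.78 (SE 0.43, adjusted p = 0.0597), and with NAC over both genotypes it was 1.93 (SE 0.43, adjusted p = 0.258). Its mutant mock signals lay below the median gene level, where differences are compressed. Sdc1, the plasma cell surface marker CD138, gave 6.42, 6.64 and 6.50 in wild-type mock and 5.59, 5.80 and 5.96 in mutant mock, which did not overlap. It differed by -0.74 (SE 0.15, adjusted p = 0.358) in mock and by -0.52 (SE 0.10, adjusted p = 0.144) over both treatments. With NAC it gave 6.24, 6.20 and 6.33 in wild type and 6.25, 5.79 and 5.85 in the mutant, which overlapped. Its interaction in limma was 0.44 (SE 0.21, adjusted p = 0.999).

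The plasma cell list was mixed in level. Cd27, Ell2 and Trp53inp1, which other blood cells also express, were above the median gene level in all 12 arrays, at 7.25 to 8.24, 5.67 to 7.23 and 4.80 to 6.23. Prdm1, the master regulator of plasma cells, lay between 2.38 and 3.10 and was below that level in all 12 arrays. Irf4, a transcription factor of plasma cells, was above it in 2 arrays, wild-type NAC replicates 2 and 3, and Tnfrsf17, the survival receptor BCMA, in 1. Of 12 measured plasma cell genes 11 were lower in the mutant over both treatments, with a median of -0.28, beside 0.00 over all genes. Limma called 0 of the 12, where 0.00902% of all genes were called. Markers of plasmacytoid dendritic cells went the same way, with 9 of 12 lower in the mutant and a median of -0.19. Their mean lay between 4.56 and 4.77 in wild-type mock and between 4.21 and 4.48 in mutant mock, and between 4.70 and 5.0 against 4.51 and 4.64 with NAC. Over the 12 arrays it had r = 0.127 with the mean of the 9 genes and r = -0.568 within groups, and the part of these cells in the plasma cell values was not tested. The mean of the plasma cell list lay between 4.25 and 4.43 in wild-type mock and between 3.80 and 3.89 in mutant mock. With NAC it lay between 4.38 and 4.72 in wild type and between 3.94 and 4.17 in the mutant. Over the 12 arrays it had r = 0.278 (rho = 0.224) with the mean of the 9 genes and r = -0.153 within groups. Beside the difference of Jchain between the mock genotypes, that of Mzb1 was -0.32, that of Derl3 -0.20, that of Fkbp11 -0.06 and that of Xbp1 -0.02.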

How the data were processed

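The deposited values are log2 signals of 41345 probe sets on 12 Affymetrix arrays, which the authors computed by RMA in Affymetrix Power Tools, per the submitters' processing notes. Their versions are not stated in those sources. By its design RMA subtracts background, equalises array distributions and combines probes, so differences of dim genes are compressed. Values from 0.74 to 13.23 set the base of the logarithm. Of the probe sets, 23521 had 1 gene symbol, 1814 several and 16010 none listed. Where 1 of the 22180 symbols had several probe sets, the brightest by mean was used. Dim genes were not removed, and 22139 symbols were found in the RefSeq table of assembly GRCm38.p6.

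All 12 arrays entered a single limma 3.58.1 model (R 4.3.3, lmFit, eBayes) with 4 group means, with Benjamini-Hochberg adjustment over all genes per comparison at 0.05. The procedure was tested on simulated data. Comparisons that share groups are not independent. The genes and lists were chosen with earlier results of these data known. Named by rule were all members, the 3 genes of each ER list with the smallest p between genotypes, and 5 plasma cell genes, and the 5 genes most like the members' mean, Hspa5 and Mzb1, leaving out predicted genes and immunoglobulin segments. Other genes were picked after their values were seen. Alternatives changed the normalization (centring or quantiles), the variance model (trend, robust, array weights), the genes tested (those above the median level), the summary of probe sets, the arrays entered, the threshold, or added the replicate block. Intervals are 95% limits from limma. Plots used Python 3.11.15 with matplotlib 3.10.9.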

Additional observations from a re-analysis of the deposited data

How the results depend on the processing

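The count of 0 among the 9 genes was the same in all 158 combinations of comparison and alternative. Of 1296 differences of these genes under an alternative, 2 moved by more than the residual SD within groups, both in the interaction without both arrays that stand apart (-0.29 for Creld2 and -0.66 for Fkbp11), and 86 changed sign. Signs were compared after rounding to 2 decimals, so values that round to 0 were never counted. The genotype difference of Fkbp11 in NAC was 0.003, and its alternatives ran from -0.30 to 0.20. For NAC over both genotypes, Sdf2l1, Manf, Fkbp11, Creld2 and Hspa5 kept their sign in all 20 alternatives.

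Counts over all genes were less steady. Leaving out 1 array at a time gave 1 to 4 calls for the genotype in mock, 0 to 3 for the genotype in NAC, 0 to 2 for NAC in the mutant, 1 to 5 for NAC in wild type, 0 to 2 for the interaction, 1 to 7 for the genotype over both treatments and 1 to 4 for NAC over both genotypes. No pairing by replicate number was seen: deviations from the group means of same-numbered arrays correlated at -0.050 to 0.090 over 18 pairs across 11090 genes. Over the 9 genes alone the same correlations were 0.663, -0.074 and 0.665 between the mock genotypes, 0.656, 0.515 and 0.229 between the NAC genotypes, and -0.725 to 0.366 in the other 12 pairs. With the replicate number as a block, the genotype gave 1 call in mock and 1 over both treatments, and no other count moved. With only the compared groups there was 1 call for the genotype in mock, 1 for NAC in wild type and 1 for the genotype in NAC. Array weights gave 4 calls for the genotype in NAC, 2 for NAC in the mutant and 4 for the genotype over both treatments. The filter at the median level gave 2 for the genotype in NAC, and quantile normalization 2 for NAC in the mutant. At an adjusted p under 0.10 the counts were 2 for the genotype in NAC, 3 for NAC in the mutant and 12 for the genotype over both treatments. Without both arrays that stand apart they were 0 for the genotype in mock, 0 for NAC in the mutant, 4 for the genotype over both treatments and 3 for NAC over both genotypes. The cause of these moves was not tested. The number of arrays limits the precision, and Mzb1 and Derl3 lie close to the median gene level.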
